A study of Mus musculus with 10 samples.

Results

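The genes described here make cAMP and cGMP or carry their signal: adenylyl and guanylyl cyclases, the natriuretic peptide receptors, the subunits of protein kinase A, the cGMP-dependent kinases, the cyclic nucleotide-gated and HCN channels, and the Rap exchange factors. They were chosen by gene symbol alone, as the protein-coding genes whose names begin with Adcy, Gucy, Prkac, Prkar, Prkg, Cnga, Cngb, Hcn or Rapgef and a number or letter, together with Npr1, Npr2 and Npr3. This gave 46 genes of the 22046 protein-coding genes and 54532 genes in the table, and 45 of them are reported here. RNA was sequenced from epithelial cells of the small intestine, taken from 5 Gucy2c-GFP mice (CD1/ICR, 10 weeks old, matched by litter). In these mice GFP is made under the Gucy2c promoter, and cells were sorted by fluorescence into GUCY2Chi cells, with high GFP, and GUCY2Cmed cells, the bulk epithelium with medium GFP. All libraries therefore came from animals carrying the same reporter, and each held RNA of 20000 sorted cells, which gave 10 libraries, 5 per group. The library numbers 2, 7, 12, 14 and 15 recur in both groups, and each was read as that of 1 mouse.

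Cyclases turn ATP into cAMP and GTP into cGMP. Rising cAMP frees the catalytic subunits of protein kinase A from its regulatory subunits, activates the Epac exchange factors Rapgef3 and Rapgef4, and shifts the opening of HCN channels, and in enteroendocrine cells it promotes hormone release. GUCY2C, the intestinal receptor of guanylin and uroguanylin, makes cGMP, which in absorptive epithelium acts through the membrane kinase PRKG2 on chloride secretion and sodium uptake.

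Between 10903958 and 15307932 counts per library fell on genes. Levels are given as CPM, a library's counts divided by its total and put on a common scale, after scaling by edgeR's TMM factors, and 3 counts correspond to between 0.181 and 0.281 CPM, depending on the library. Summed markers of enteroendocrine cells (22 genes) ranged from 41436 to 164145 CPM in GUCY2Chi libraries and from 149 to 360 CPM in GUCY2Cmed libraries, and those of enterocytes (18 genes) from 3273 to 31723 CPM and from 56523 to 76017 CPM. Within the GUCY2Chi group, the libraries of mice 12 and 15 stood apart, with enterocyte markers at 31171 and 31723 CPM against at most 4346 CPM in the others, and mouse 15 had the lowest enteroendocrine sum. All 22 enteroendocrine markers were detected in each GUCY2Chi library. Paneth cell markers (7 genes, Defa21 at 0 in GUCY2Chi cells) reached 45619 and 26810 CPM in GUCY2Chi of mice 2 and 14, against at most 10321 CPM in the other GUCY2Chi and 15331 CPM in the GUCY2Cmed libraries. Goblet cell markers (7 genes) reached 23420 CPM in GUCY2Chi of mouse 2, against at most 9746 and 13021 CPM. Tuft cell markers (8 genes) summed to 36.5 to 61.9 CPM in GUCY2Chi and 9.71 to 23.6 CPM in GUCY2Cmed libraries, and those of proliferating cells (16 genes) to 124 to 286 CPM and 399 to 876 CPM. Transcripts of 15 forebrain neuron genes were also present, at 234 to 2451 CPM in GUCY2Chi libraries, least in mice 14 and 2, and at 782 to 1720 CPM in GUCY2Cmed libraries. Of the 782 CPM, found in GUCY2Cmed of mouse 7, 756 CPM were Ppp1r1b. This gene was at 428 to 756 CPM in GUCY2Cmed and 60.7 to 256 CPM in GUCY2Chi libraries, so that the sum of all 15 also varied with the group through it. The 13 of these genes at or below 10 CPM in that library summed to 14.8 CPM there. In the other GUCY2Cmed libraries the 13 summed to 273 to 743 CPM, and in GUCY2Chi libraries to 42.6 to 1349 CPM. The part of Paneth, goblet, tuft and proliferating cells in the values below was not tested. Since these are bulk libraries, fewer cells of a type and less RNA per cell cannot be told apart in any value below.

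Most of the differences among these genes lay in 1 direction, toward GUCY2Chi cells. Of the 45 genes, 33 passed the low-count filter (more than 0.5 CPM in at least 3 libraries) and were tested within the fit over all 15703 genes, and 12 did not pass. With edgeR's quasi-likelihood test and a Benjamini-Hochberg adjusted p below 0.01, 11 of the 33 were higher in GUCY2Chi cells (33.3%), where 13.9% of all genes tested were. Another 2 of the 33 were lower (6.06%), where 8.79% of all genes were, and 20 were not called, so that 13 of 33 differed in either direction, against 22.7% of all genes. Of the 11, 4 (Npr1, Cnga3, Hcn3 and Hcn4) exceeded 0.5 CPM in fewer than 3 GUCY2Cmed libraries and passed the filter only through GUCY2Chi. This route admits genes with a higher level there, although Gucy2g, Adcy7 and Cnga4 passed by it as well and were not called. Gucy2c is also among the 11, and its promoter drives the reporter used for sorting, so its direction was set by the gate. These counts, and the median and the separation of libraries below, are therefore given as a description. Limma-voom called 10 higher and 2 lower (13.6% and 11.4% of all genes) and DESeq2 11 and 2 (18.8% and 14.2%). The median log2 fold change, GUCY2Chi over GUCY2Cmed, was 0.98 over the 33 genes and 0.094 over all genes tested. In 12 of the 33 genes every GUCY2Chi library lay above every GUCY2Cmed library, and in 2 every one lay below, against 16.7% and 13.2% of all genes. Without TMM scaling, which shifted the median of all genes by 0.29, 11 of the 33 genes were higher and 1 lower (18.5% and 3.55% of all genes), and the share of higher calls among all calls moved from 61.3% to 83.9%.

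The genes called higher were Gucy2c, Npr1, Adcy2, Adcy8, Prkacb, Prkar1a, Prkar2b, Cnga3, Hcn3, Hcn4 and Rapgef4, and those called lower were Prkar2a and Prkg2. Among these 13 genes, 5 were called in every one of the alternative fits that tested them: Adcy2, Prkar1a, Hcn3 and Hcn4, which were higher, and Prkg2, which was lower. The share of all genes that were called in every alternative fit was not computed, so this count is given as a description. Prkar1a and Prkg2 were tested in 22 such fits. Adcy2, Hcn3 and Hcn4 were tested in 21, as they did not reach 10 counts in every library, which 1 fit required. With the mouse number as replicate block, edgeR called Adcy2, Prkar1a, Hcn3 and Hcn4 higher and Prkg2 lower, where it called 8.24% of all genes higher and 4.96% lower. In limma-voom with the same block, 9 were higher and 1 lower, against 11.6% and 8.80% of all genes. Of the 11 genes called higher, 7 had their lowest GUCY2Chi level in mouse 15 and 3 in mouse 12, the libraries with the most enterocyte marker RNA, whose part in these levels was not tested. Without both libraries of mice 12 and 15, 7 of 29 genes tested were higher and 3 lower, where 11.7% and 10.7% of all genes were.

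**Figure D1:**
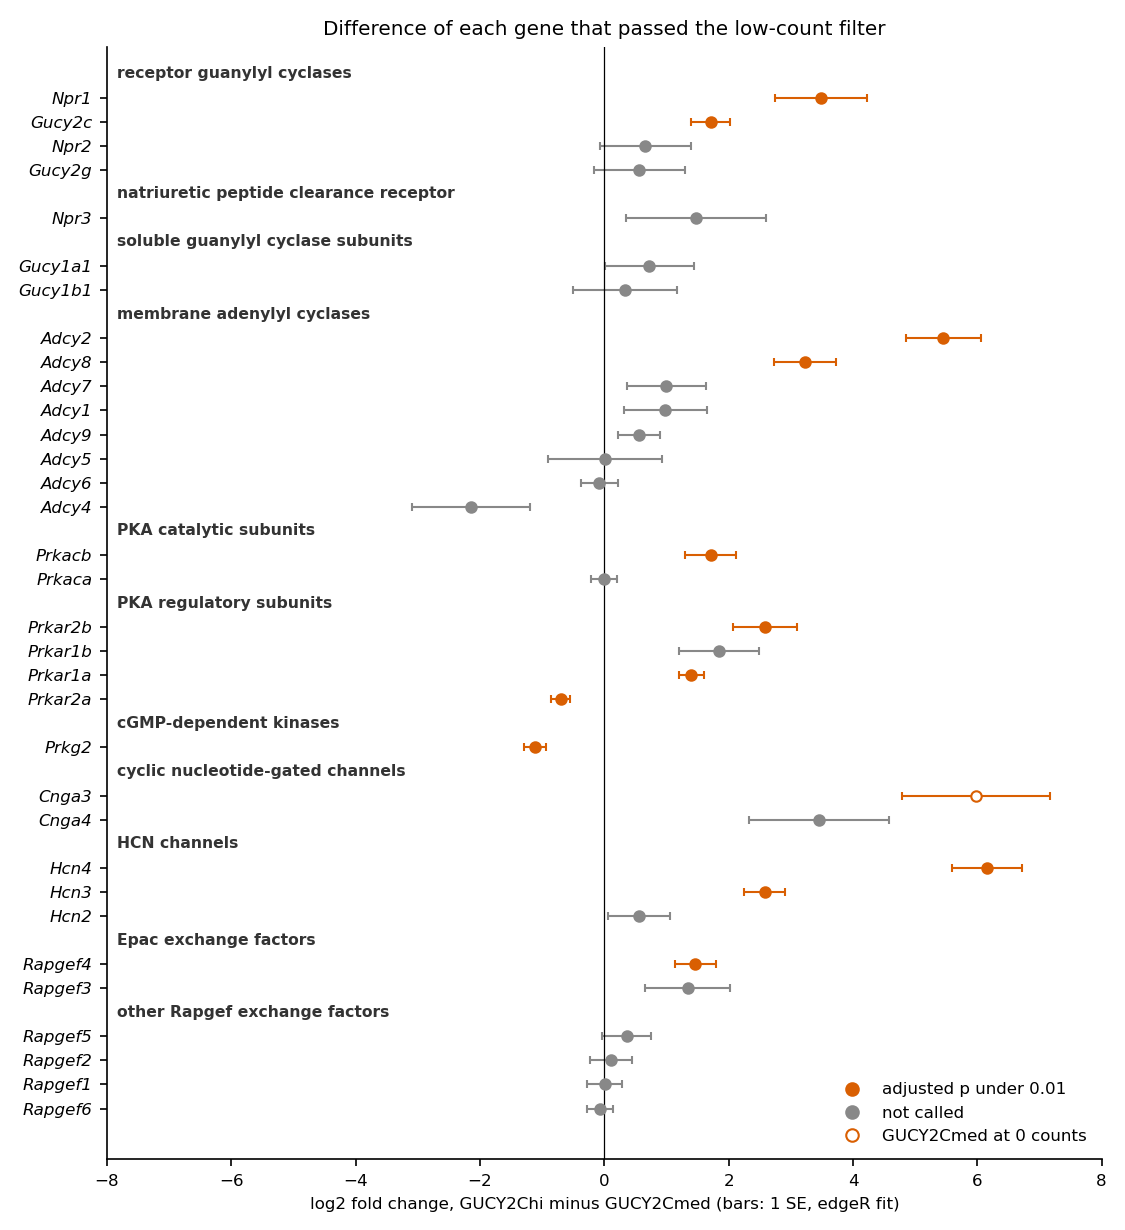
Log2 fold change of each of the 33 genes tested, GUCY2Chi minus GUCY2Cmed, from the edgeR fit, with bars of 1 standard error and genes grouped by family (orange: adjusted p below 0.01; grey: not called; open: no count in GUCY2Cmed libraries, so that the fitted value is no bound). Adcy2, Hcn4 and Cnga3 lie farthest to the right, and Prkar2a and Prkg2 are the only called genes left of 0.

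Promoter sequence was examined for the genes with an entry in RefSeq's table for GRCm38.p6, which covers 250 bases before and 50 after each listed start. An entry was found for 39 of the 45 genes and for 9 of the 13 called genes. The letters TGACGTCA, the palindromic cAMP response element bound by CREB, occur in 1.79% of 32851 promoters in that table, and among these genes only at Prkar1a, in 2 overlapping entries of its 6 and of the 61 that all these genes have (3.28%). The shorter core TGACG, or CGTCA on the other strand, which the full element contains, was in 15 of the 61 entries (24.6%), where 20.8% of all promoters hold it. The E-box letters CAGATG, or CATCTG, bound by NEUROD1, were in 8 of the 61 (13.1%), against 17.2% of all promoters. The Prkar1a promoter is shown because it holds the full element, in capitals, whose first base lies 49 bases before the start, and those of Adcy2 and Hcn4 because these are the called genes with an entry that differed by the most among those counted in both groups. Both of the latter lack all 3 sets of letters in the window shown, which says only that these letters are not in it.
Prkar1a promoter, chr11:109650699-109650998, GRCm38.p6, + strand: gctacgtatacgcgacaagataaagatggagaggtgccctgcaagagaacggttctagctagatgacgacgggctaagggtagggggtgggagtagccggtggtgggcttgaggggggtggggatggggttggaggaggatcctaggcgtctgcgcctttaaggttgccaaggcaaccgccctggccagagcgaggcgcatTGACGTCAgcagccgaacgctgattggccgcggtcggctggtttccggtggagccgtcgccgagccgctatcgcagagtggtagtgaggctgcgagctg
Adcy2 promoter, chr13:68999492-68999791, GRCm38.p6, - strand: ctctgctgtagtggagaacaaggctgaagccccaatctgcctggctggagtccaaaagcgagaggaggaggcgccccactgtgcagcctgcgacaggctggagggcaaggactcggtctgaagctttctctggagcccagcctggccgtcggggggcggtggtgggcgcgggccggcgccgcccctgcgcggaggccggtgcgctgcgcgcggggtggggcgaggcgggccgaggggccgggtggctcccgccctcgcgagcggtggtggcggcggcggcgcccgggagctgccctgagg
Hcn4 promoter, chr9:58822699-58822998, GRCm38.p6, + strand: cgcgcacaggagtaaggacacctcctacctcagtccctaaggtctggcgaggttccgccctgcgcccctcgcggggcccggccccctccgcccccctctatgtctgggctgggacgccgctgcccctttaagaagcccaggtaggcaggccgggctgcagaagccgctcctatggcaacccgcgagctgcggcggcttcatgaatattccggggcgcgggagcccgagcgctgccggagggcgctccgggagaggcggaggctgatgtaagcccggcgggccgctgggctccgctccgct

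Gucy2c was the most abundant of the 45 genes in both groups by CPM and by CPM per kilobase. It was also nearly the only receptor guanylyl cyclase. By the deposited FPKM, which use other lengths, Prkar1a lay above Gucy2c in every GUCY2Cmed library. The same held in every GUCY2Chi library except that of mouse 7, so that the order of these genes depended on the lengths used. Gucy2c (ENSMUSG00000042638, chr6:136697284-136781765 on GRCm38) was at 1533, 1752, 1021, 1757 and 549 CPM in the GUCY2Chi libraries of mice 2, 7, 12, 14 and 15. In the GUCY2Cmed libraries of the same mice it was at 483, 385, 323, 375 and 456 CPM. The groups did not overlap, although mouse 15 came close to the GUCY2Cmed range. Gucy2c differed by 1.71 ± 0.32 (SE) on the log2 scale, with adjusted p = 0.00187 in edgeR, and adjusted p was 0.0115 with the replicate block and 0.0103 without both libraries of mouse 7. Because cells were sorted on GFP made under the Gucy2c promoter, this difference belongs to the gate and is given as a check of the labels. On the scale of CPM per kilobase, Gucy2c made up 99.8% ± 0.191 (SD, n = 5) of the summed level of the 7 receptor cyclases in GUCY2Chi cells and 99.8% ± 0.203 in GUCY2Cmed cells.

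Npr1, the receptor cyclase for atrial natriuretic peptide, was called higher at a level close to the limit of counting. Npr1 (ENSMUSG00000027931, chr3:90450591-90465866) had 21, 14, 20, 7 and 9 counts in the GUCY2Chi libraries of mice 2, 7, 12, 14 and 15, or 1.41, 0.844, 1.51, 0.540 and 0.567 CPM. In the GUCY2Cmed libraries it had 0, 1, 3, 1 and 0 counts. Every GUCY2Chi library was above every GUCY2Cmed library, and the ratio of the pooled levels was 11.98, with an exact 95% interval from counting error alone of 4.90 to 38.02. In edgeR, Npr1 differed by 3.49 ± 0.74 (SE) on the log2 scale with adjusted p = 0.00378. Npr1 passed the low-count filter only through GUCY2Chi libraries, so these values are given as a description. The adjusted p was 0.0143 with the replicate block, 0.0114 without the GUCY2Cmed library of mouse 14, 0.0128 without mice 12 and 15 and 0.0154 without mouse 7. Gucy2g (log2 fold change 0.57, adjusted p = 0.595 in edgeR), the C-type natriuretic peptide receptor Npr2 (0.66, adjusted p = 0.527) and the clearance receptor Npr3, which has no cyclase (1.47, adjusted p = 0.337), overlapped between groups. The retinal and olfactory cyclases Gucy2d, Gucy2e and Gucy2f had at most 2 counts in any library and were not tested.

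Of the subunits of soluble guanylyl cyclase, the nitric oxide receptor, Gucy1a1 and Gucy1b1 were tested and not called. Gucy1a1 ranged from 1.59 to 8.44 CPM in GUCY2Chi libraries and from 0.0803 to 3.89 CPM in GUCY2Cmed libraries (log2 fold change 0.72, adjusted p = 0.474 in edgeR). Gucy1b1 ranged from 0.463 to 3.34 CPM and from 0 to 2.34 CPM (log2 fold change 0.33, adjusted p = 0.807). Both were highest in the GUCY2Chi library of mouse 15 and lowest in the GUCY2Cmed library of mouse 7, as Camk2a was, and the sign for Gucy1b1 turned without mouse 7 and without mice 12 and 15. Gucy1a2 had at most 6 counts in any library and Gucy1b2 at most 1.

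Adcy2, a cyclase stimulated by G protein beta-gamma subunits, was the adenylyl cyclase that differed most. Adcy2 (ENSMUSG00000021536, chr13:68620043-68999541) was at 105, 96.5, 91.4, 145 and 42.1 CPM in the GUCY2Chi libraries of mice 2, 7, 12, 14 and 15. The GUCY2Cmed libraries had 2.06, 0.241, 4.32, 3.00 and 1.20 CPM. The lowest GUCY2Chi library, that of mouse 15, was far above the highest GUCY2Cmed library, that of mouse 12. Adcy2 differed by 5.45 ± 0.60 (SE) on the log2 scale, with adjusted p = 6.91e-05 in edgeR, and by 5.17 to 5.90 when any 1 library was omitted. The antisense gene Gm35161, which overlaps Adcy2, averaged 1.20 CPM in GUCY2Chi cells and 0.0187 CPM in GUCY2Cmed cells, and whether the counting used strand is not given in the sources used here.

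Adcy8, which calcium and calmodulin stimulate, was also higher. Adcy8 (ENSMUSG00000022376, chr15:64697084-64922296) was at 12.4, 17.8, 9.16, 17.96 and 3.59 CPM in the GUCY2Chi libraries of mice 2, 7, 12, 14 and 15, and at 1.31, 0.883, 1.87, 0.526 and 1.88 CPM in the GUCY2Cmed libraries. The groups did not overlap, and mouse 15 again had the lowest GUCY2Chi level. Adcy8 differed by 3.23 ± 0.49 (SE) on the log2 scale, with adjusted p = 0.000649 in edgeR. With the replicate block the adjusted p was 0.0112, and this was the only alternative in which Adcy8 was not called.

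The other 6 adenylyl cyclases tested were not called. Adcy1, the other calmodulin-stimulated form, averaged 15.8 ± 5.81 CPM (SD, n = 5) in GUCY2Chi cells and 8.01 ± 5.71 CPM in GUCY2Cmed cells (log2 fold change 0.98, adjusted p = 0.280 in edgeR). The calcium-inhibited forms Adcy5 and Adcy6 had log2 fold changes of 0.016 and -0.082, each with a sign that depended on the fit, and adjusted p of 0.993 and 0.873 in edgeR. In GUCY2Cmed cells Adcy6 stood at 6.20 ± 0.720 CPM (SD, n = 5) against 5.85 ± 2.25 CPM in GUCY2Chi cells. Adcy9 (0.56, adjusted p = 0.212) and Adcy7 (0.998, adjusted p = 0.241) overlapped between groups. Adcy4 lay below its GUCY2Cmed level in 5 of 5 mice, with 0, 0.0603, 0.757, 0 and 0.756 CPM in mice 2, 7, 12, 14 and 15 against 0.562, 0.883, 0.792, 2.78 and 2.05 CPM. Adcy4 missed the threshold over all libraries (log2 fold change -2.14, adjusted p = 0.0973 in edgeR) and passed it without mice 12 and 15 (adjusted p = 0.00901). Adcy3 had at most 12 counts in any library, and the soluble cyclase Adcy10 at most 5.

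Per kilobase of gene length, the 9 membrane adenylyl cyclases summed to 28.1 ± 8.39 CPM per kb (SD, n = 5) in GUCY2Chi cells and 3.78 ± 1.38 CPM per kb in GUCY2Cmed cells. Adcy2 supplied 79.1% ± 9.66 of that sum in GUCY2Chi cells and 11.9% ± 6.26 in GUCY2Cmed cells. In GUCY2Cmed cells the largest mean shares were those of Adcy6 (28.1% ± 14.5), Adcy9 (18.4% ± 3.35) and Adcy1 (14.5% ± 8.69). By the deposited FPKM, which use other lengths, the share of Adcy2 was 70.8% and 7.01%, and in GUCY2Cmed cells Adcy6 (38.3%) was followed by Adcy1 (12.98%), Adcy5 (12.8%) and Adcy9 (11.7%), so that the order after Adcy6 depended on the lengths used.

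**Figure D2:**
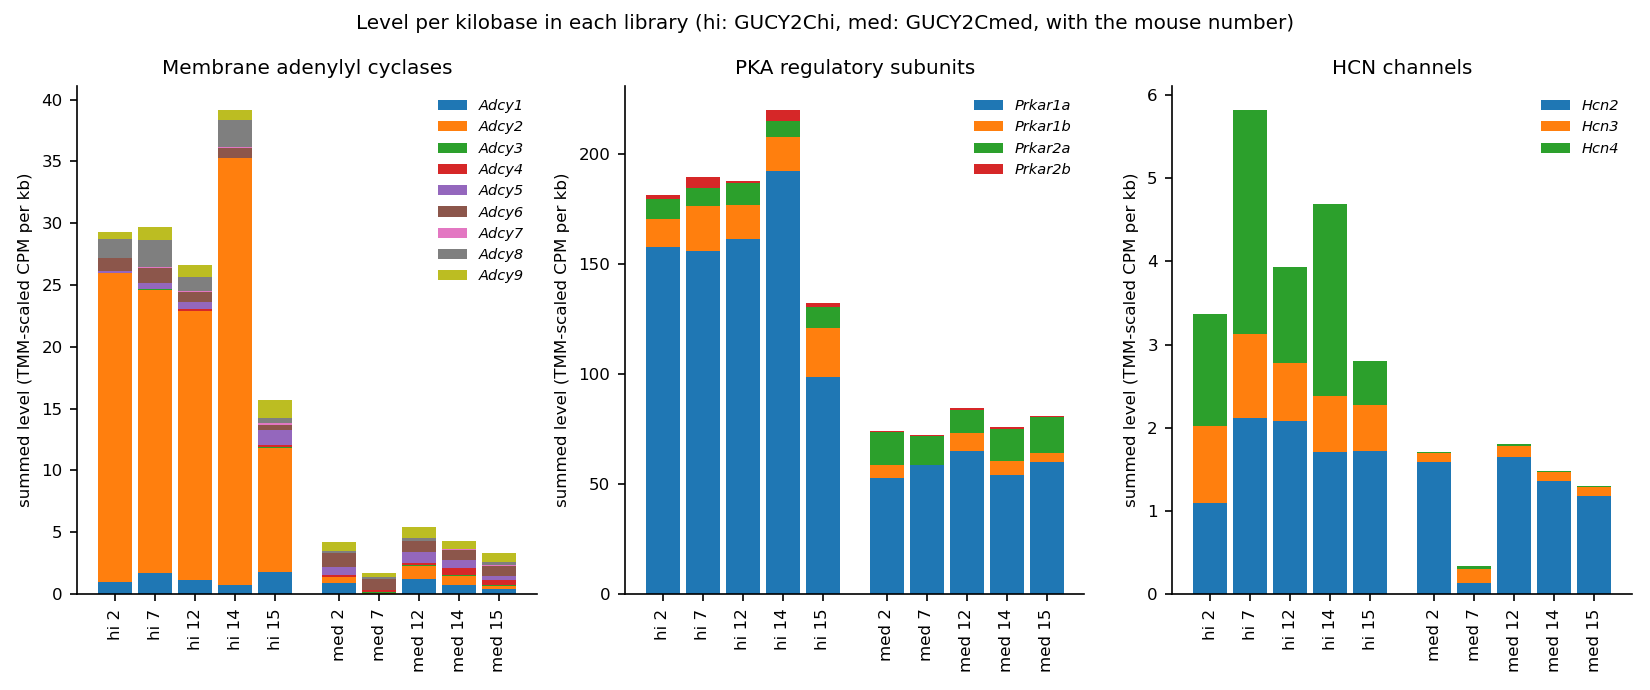
Summed level of 3 families in each library, in TMM-scaled CPM per kilobase, stacked by gene, with GUCY2Chi libraries (hi) on the left and GUCY2Cmed libraries (med) on the right. Adcy2 fills most of each GUCY2Chi bar among the cyclases, Prkar1a fills most of every bar among the kinase A regulatory subunits, and Hcn4 is a broad band in GUCY2Chi bars and at most a thin line in GUCY2Cmed bars (channel panel: Hcn2, Hcn3 and Hcn4).

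The catalytic subunits of protein kinase A differed unequally. Prkaca, the main catalytic gene in most tissues, averaged 61.8 ± 10.7 CPM (SD, n = 5) in GUCY2Chi cells and 62.3 ± 16.5 CPM in GUCY2Cmed cells. The groups differed by -0.0099 ± 0.21 (SE) on the log2 scale for Prkaca (adjusted p = 0.979 in edgeR), and 14 of 22 alternative fits gave a positive sign. Prkacb (ENSMUSG00000005034, chr3:146729574-146812990) was called higher, with 33.6, 49.1, 29.0, 36.5 and 46.5 CPM in the GUCY2Chi libraries of mice 2, 7, 12, 14 and 15. The GUCY2Cmed libraries had 13.4, 2.57, 19.7, 14.6 and 9.16 CPM. The groups did not overlap, with the lowest value in the GUCY2Cmed library of mouse 7. Prkacb differed by 1.71 ± 0.41 (SE) on the log2 scale, with adjusted p = 0.00746 in edgeR, and adjusted p was 0.0291 with the replicate block, 0.0169 in limma-voom with it, and 0.0311 without mice 12 and 15. Leaving out 1 library ended the call in 7 of 10 fits, those without GUCY2Chi of mouse 2, 7, 14 or 15 or GUCY2Cmed of mouse 2, 14 or 15, with adjusted p up to 0.0261. Per kilobase, Prkaca exceeded Prkacb by 4.10 to 9.15 times in GUCY2Chi libraries and by 10.2 to 52.9 times in GUCY2Cmed libraries. By the deposited FPKM the share of Prkaca in the catalytic sum was 70.1% in GUCY2Chi cells and 89.0% in GUCY2Cmed cells, where CPM per kilobase gave 84.6% and 94.96%.

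Among the regulatory subunits, Prkar1a and Prkar2b were higher and Prkar2a was lower. Prkar1a, the type I alpha subunit (ENSMUSG00000020612, chr11:109649405-109669656), was at 683, 674, 698, 831 and 425 CPM in the GUCY2Chi libraries of mice 2, 7, 12, 14 and 15. In the GUCY2Cmed libraries it was at 228, 252, 281, 234 and 260 CPM. The GUCY2Cmed libraries lay close together and all below the lowest GUCY2Chi library. Prkar1a differed by 1.40 ± 0.20 (SE) on the log2 scale, with adjusted p = 0.000435 in edgeR, and by 1.31 to 1.55 when any 1 library was omitted. This is the gene whose promoter, printed above, holds the full cAMP response element.

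Prkar2a, the type II alpha subunit (ENSMUSG00000032601, chr9:108689314-108750436), was at 56.3, 52.0, 62.5, 45.2 and 60.1 CPM in the GUCY2Chi libraries of mice 2, 7, 12, 14 and 15, and at 95.1, 86.0, 67.8, 94.7 and 106 CPM in the GUCY2Cmed libraries. It was lower in GUCY2Chi cells of 5 of 5 mice without overlap, by the smallest log2 difference among the 13 called genes, -0.70 ± 0.16 (SE), with adjusted p = 0.00505 in edgeR. The call ended with the replicate block (adjusted p = 0.0199, and 0.0165 in limma-voom), without TMM scaling (0.0652, log2 fold change -0.41), without the filter (0.0163), with at least 10 counts required in every library (0.0143) and without mouse 7 (0.0297). It also ended in 6 of 10 fits with 1 library left out, those without GUCY2Chi of mouse 2, 7 or 14 or GUCY2Cmed of mouse 2, 14 or 15, with adjusted p up to 0.0206. Per kilobase the ratio of Prkar1a to Prkar2a, which TMM scaling does not touch, was 10.4 to 27.1 in GUCY2Chi libraries and 3.54 to 6.11 in GUCY2Cmed libraries, without overlap.

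Prkar2b, the type II beta subunit (ENSMUSG00000002997, chr12:31958476-32061296), was at 7.46, 18.9, 3.18, 18.6 and 7.93 CPM in the GUCY2Chi libraries of mice 2, 7, 12, 14 and 15, and at 1.498, 0.803, 2.81, 2.70 and 1.45 CPM in the GUCY2Cmed libraries. The spread within GUCY2Chi cells was wide, and mouse 12 came close to the GUCY2Cmed range. Prkar2b differed by 2.58 ± 0.52 (SE) on the log2 scale, with adjusted p = 0.00302 in edgeR. Adjusted p was 0.0198 with the replicate block, 0.0118 in limma-voom, 0.0110 without the GUCY2Cmed library of mouse 15 and 0.0148 without mouse 7. Prkar1b, the type I beta subunit, did not overlap between groups either, at 48.4 to 85.3 CPM against 0.482 to 30.6 CPM, but missed the threshold (log2 difference 1.84, SE 0.64, adjusted p = 0.0394 in edgeR). The summed level of the 4 regulatory subunits was 182 ± 31.6 CPM per kb (SD, n = 5) in GUCY2Chi cells and 77.5 ± 5.05 CPM per kb in GUCY2Cmed cells. Prkar1a made up 83.4% ± 5.48 and 75.0% ± 4.04 of it, and Prkar2a 4.94% ± 1.43 and 18.3% ± 3.257. By the deposited FPKM the share of Prkar1a was 78.4% and 65.4%.

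Prkg2, the membrane-bound cGMP-dependent kinase of the intestinal epithelium, was lower in GUCY2Chi cells while Gucy2c was higher. Prkg2 (ENSMUSG00000029334, chr5:98929773-99037351) was at 30.9, 36.9, 33.0, 43.9 and 38.5 CPM in the GUCY2Chi libraries of mice 2, 7, 12, 14 and 15. The GUCY2Cmed libraries had 101, 81.2, 58.8, 72.5 and 82.8 CPM. The groups did not overlap, and the mice 12 and 15, with the most enterocyte RNA, had GUCY2Chi levels within the range of the other 3. The part of enterocyte RNA in the Prkg2 levels was not tested. Prkg2 differed by -1.11 ± 0.17 (SE) on the log2 scale, with adjusted p = 0.000689 in edgeR and 0.00642 with the replicate block, and by -1.19 without mice 12 and 15 (adjusted p = 0.00410). Prkg1, the cytosolic form known from smooth muscle, had at most 11 counts in any library, and it overlaps Cstf2t, a gene of 23.5 CPM on the other strand.

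**Figure D3:**
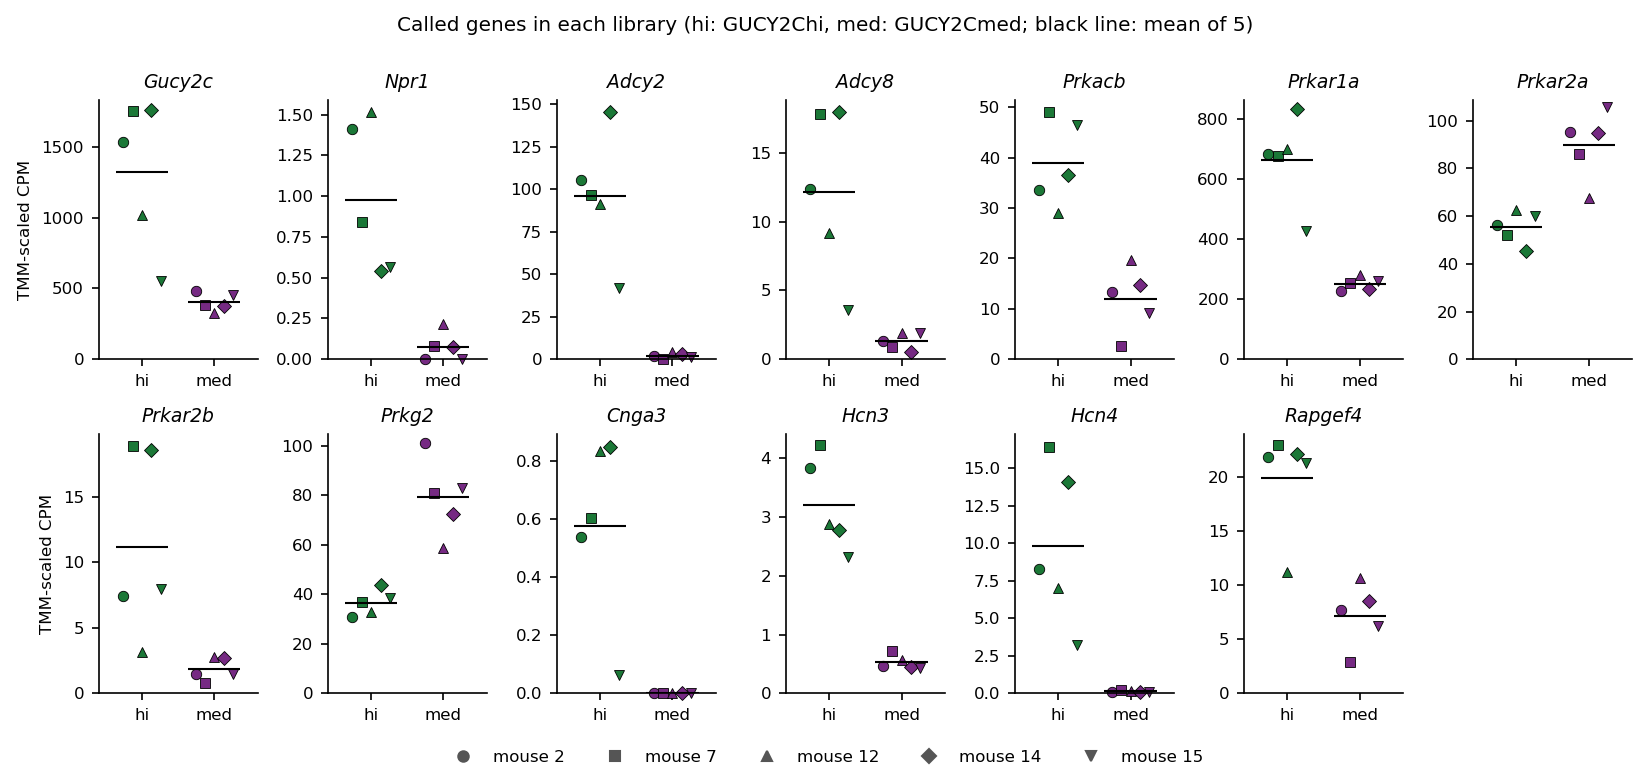
Level of each of the 13 called genes in each library, in TMM-scaled CPM on linear axes that start at 0, with the marker shape giving the mouse and the black line the mean of 5 libraries. The groups are separate in all 13 panels, and in the GUCY2Chi group the library of mouse 15 is the lowest for 7 of the 11 genes called higher.

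Of the cyclic nucleotide-gated channels, which open when cAMP or cGMP binds, transcripts were scarce. Cnga3, the cone photoreceptor subunit (ENSMUSG00000026114, chr1:37214434-37263384), had 8, 10, 11, 11 and 1 counts in the GUCY2Chi libraries of mice 2, 7, 12, 14 and 15 and 0 counts in each GUCY2Cmed library. It was therefore detected in all GUCY2Chi libraries, with 1 count in mouse 15, and was at least 11.5-fold higher, computed against a floor of 3 counts over the group. As Cnga3 passed the low-count filter only through GUCY2Chi libraries, its test values are given as a description. Adjusted p was 0.00641 in edgeR, 0.0501 with the replicate block, 0.0111 without mice 12 and 15, 0.0227 without mouse 7, and 0.0118 with the level of 15 forebrain genes as a covariate. Leaving out 1 library ended the call in 8 of 10 fits, all but those without GUCY2Chi of mouse 15 or GUCY2Cmed of mouse 7, with adjusted p up to 0.0163. Cnga4, a modulatory subunit known from olfactory neurons, had 12, 11, 0, 27 and 6 counts against 0, 1, 3, 0 and 0 and was not called (adjusted p = 0.0305 in edgeR), with a pooled ratio of 11.8 and an exact 95% interval from counting error of 4.36 to 44.9. Cngb1 had 4, 2, 0, 5 and 1 counts in GUCY2Chi libraries and none in GUCY2Cmed libraries, too few to be tested. Cnga1 had at most 2 counts in any library, Cngb3 at most 1, and Cnga2 had 0 in all 10.

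The HCN channels carry a depolarizing current that opens on hyperpolarization and is known from the heart's pacemaker and from neurons, and Hcn3 and Hcn4 were higher in GUCY2Chi cells. Hcn4 (ENSMUSG00000032338, chr9:58823412-58863175) was at 8.27, 16.5, 7.04, 14.1 and 3.21 CPM in the GUCY2Chi libraries of mice 2, 7, 12, 14 and 15, from 51 to 273 counts. The GUCY2Cmed libraries had 1, 3, 2, 1 and 1 counts. Every GUCY2Cmed library was thus at or below 3 counts, and the ratio of the pooled levels was 76.2, with an exact 95% interval from counting error of 38.5 to 177. Hcn4 differed by 6.16 ± 0.57 (SE) on the log2 scale, with adjusted p = 2.33e-05 in edgeR, the smallest adjusted p of the 33 genes tested. Since Hcn4 passed the low-count filter only through GUCY2Chi libraries, this rank is given as a description.

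Hcn3 (ENSMUSG00000028051, chr3:89146074-89160196) was at 3.83, 4.22, 2.88, 2.78 and 2.33 CPM in the GUCY2Chi libraries of mice 2, 7, 12, 14 and 15, and at 0.468, 0.723, 0.576, 0.451 and 0.428 CPM in the GUCY2Cmed libraries. Both groups were tight and far apart. Hcn3 differed by 2.58 ± 0.34 (SE) on the log2 scale, with adjusted p = 0.000220 in edgeR. Like Hcn4, it passed the low-count filter only through GUCY2Chi libraries, so these values are given as a description. Pklr, on the other strand of the same locus, averaged 68.7 CPM in GUCY2Chi cells and 113 CPM in GUCY2Cmed cells, the opposite order, and its part in the Hcn3 counts was not tested.

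Hcn2 overlapped between groups, at 3.50 to 6.75 CPM and 0.401 to 5.26 CPM (log2 fold change 0.56, adjusted p = 0.415 in edgeR). Per kilobase, Hcn4 made up 36.7% ± 12.6 (SD, n = 5) of the summed level of Hcn2, Hcn3 and Hcn4 in GUCY2Chi cells and 3.14% ± 4.74 in GUCY2Cmed cells, and Hcn2 43.9% ± 12.5 and 80.7% ± 24.4. By the deposited FPKM the shares in GUCY2Chi cells were 39.1% for Hcn3, 33.4% for Hcn2 and 27.5% for Hcn4, so that the order there depended on the lengths used, and in GUCY2Cmed cells 28.9%, 69.1% and 1.94%. The sum was 4.12 ± 1.18 and 1.33 ± 0.587 CPM per kb.

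Of the exchange factors for Rap proteins, only Rapgef4, the Epac form known from hormone-secreting cells, was called. Rapgef4 (ENSMUSG00000049044, chr2:71981240-72257474) was at 21.9, 23.0, 11.3, 22.2 and 21.3 CPM in the GUCY2Chi libraries of mice 2, 7, 12, 14 and 15, and at 7.68, 2.89, 10.7, 8.56 and 6.25 CPM in the GUCY2Cmed libraries. Both libraries of mouse 12 lay next to each other at the edge of their groups. Rapgef4 differed by 1.47 ± 0.32 (SE) on the log2 scale, with adjusted p = 0.00487 in edgeR, and adjusted p was 0.0233 with the replicate block, 0.0152 in limma-voom with it, 0.0107 without mice 12 and 15 and 0.0100 without mouse 7. Leaving out 1 library ended the call in 6 of 10 fits, those without GUCY2Chi of mouse 2, 7 or 14 or GUCY2Cmed of mouse 2, 14 or 15, with adjusted p up to 0.0169. The other Epac gene, Rapgef3, differed by 1.34 on the log2 scale (adjusted p = 0.144 in edgeR) and ranged from 0.308 to 4.24 CPM in GUCY2Chi libraries. Rapgef4 was 92.0% ± 6.15 (SD, n = 5) of the Epac level per kilobase in GUCY2Chi cells and 90.1% ± 5.88 in GUCY2Cmed cells.

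The 4 exchange factors that lack the Epac type of cAMP control, Rapgef1, Rapgef2, Rapgef5 and Rapgef6, had a median log2 fold change of 0.057. Their values were 0.0044 for Rapgef1, 0.11 for Rapgef2, 0.36 for Rapgef5 and -0.074 for Rapgef6, with adjusted p of 0.532 to 0.994 in edgeR, and the signs of Rapgef1, Rapgef2 and Rapgef6 turned in some of the alternatives. Rapgef6 was the most abundant of them, at 11.4 ± 2.35 CPM (SD, n = 5) in GUCY2Chi cells and 12.04 ± 2.45 CPM in GUCY2Cmed cells.

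Several of these genes are also abundant in brain, and their levels were set beside Camk2a, a kinase gene of forebrain neurons. Camk2a was at 2.02, 30.5, 25.2, 2.54 and 81.8 CPM in the GUCY2Chi libraries of mice 2, 7, 12, 14 and 15 and at 35.3, 1.04, 43.8, 34.4 and 16.7 CPM in the GUCY2Cmed libraries. It thus varied within both groups and was near its lowest in GUCY2Chi of mice 2 and 14 and in GUCY2Cmed of mouse 7. In this last library Prkar1b (0.482 CPM), Adcy1 (0.161), Adcy5 (0), Gucy1a1 (0.0803), Gucy1b1 (0), Hcn2 (0.401), Prkacb (2.57) and Rapgef4 (2.89) each had their lowest level of the 5 GUCY2Cmed libraries. The same held for Adcy2, at 0.241 CPM against 1.20 to 4.32 CPM in the others, and for Prkar2b, Prkaca, Adcy9, Rapgef2, Rapgef5, Rapgef6, Gucy2g, Npr2 and Npr3. It did not hold for Gucy2c, Prkar1a, Prkar2a, Prkg2, Adcy4, Adcy6, Adcy8, Hcn3 and Hcn4.

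In the GUCY2Chi libraries of mice 2 and 14, where Camk2a was also low, Prkar1b was at 48.4 and 59.0 CPM, Prkacb at 33.6 and 36.5 CPM and Rapgef4 at 21.9 and 22.2 CPM. Adcy1, at 11.8 and 9.40 CPM, had its lowest GUCY2Chi levels there, below its highest GUCY2Cmed level of 14.9 CPM, and Adcy5, at 1.01 and 0.463 CPM, was low in both. Per kilobase, the ratio of Prkar1b to Camk2a was 0.904 to 1.75 in GUCY2Cmed libraries and 2.04 to 47.0 in GUCY2Chi libraries, without overlap. The same ratio overlapped between groups for Prkacb (0.323 to 2.09 and 0.484 to 14.2), Rapgef4 (0.243 to 3.096 and 0.291 to 12.1) and Adcy1 (0.0917 to 0.203 and 0.164 to 3.48), as it did for Hcn2, Adcy5, Gucy1a1 and Gucy1b1. With the summed level of 13 of the 15 forebrain genes as a covariate, those at or below 10 CPM in GUCY2Cmed of mouse 7, 12 of the 33 genes were higher and 2 lower, where 16.8% and 12% of all genes were. All 13 genes called without it were called with it, and Prkar1b was added (log2 fold change 2.41, adjusted p = 0.00424 in edgeR). The 13 were chosen after seeing the data by their level in a library where Prkar1b was also low. With all 15 genes as the covariate Prkar1b was not called (2.17, adjusted p = 0.0241 in edgeR), nor was Cnga3, with 10 genes higher and 2 lower. These 15 include Ppp1r1b, which was lower in every GUCY2Chi library than in any GUCY2Cmed library. Without both libraries of mouse 7, 7 of 30 genes tested were higher and 1 lower, against 9.96% and 2.19% of all genes, with Prkar1b among the 7 (adjusted p = 0.00380).

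**Figure D4:**
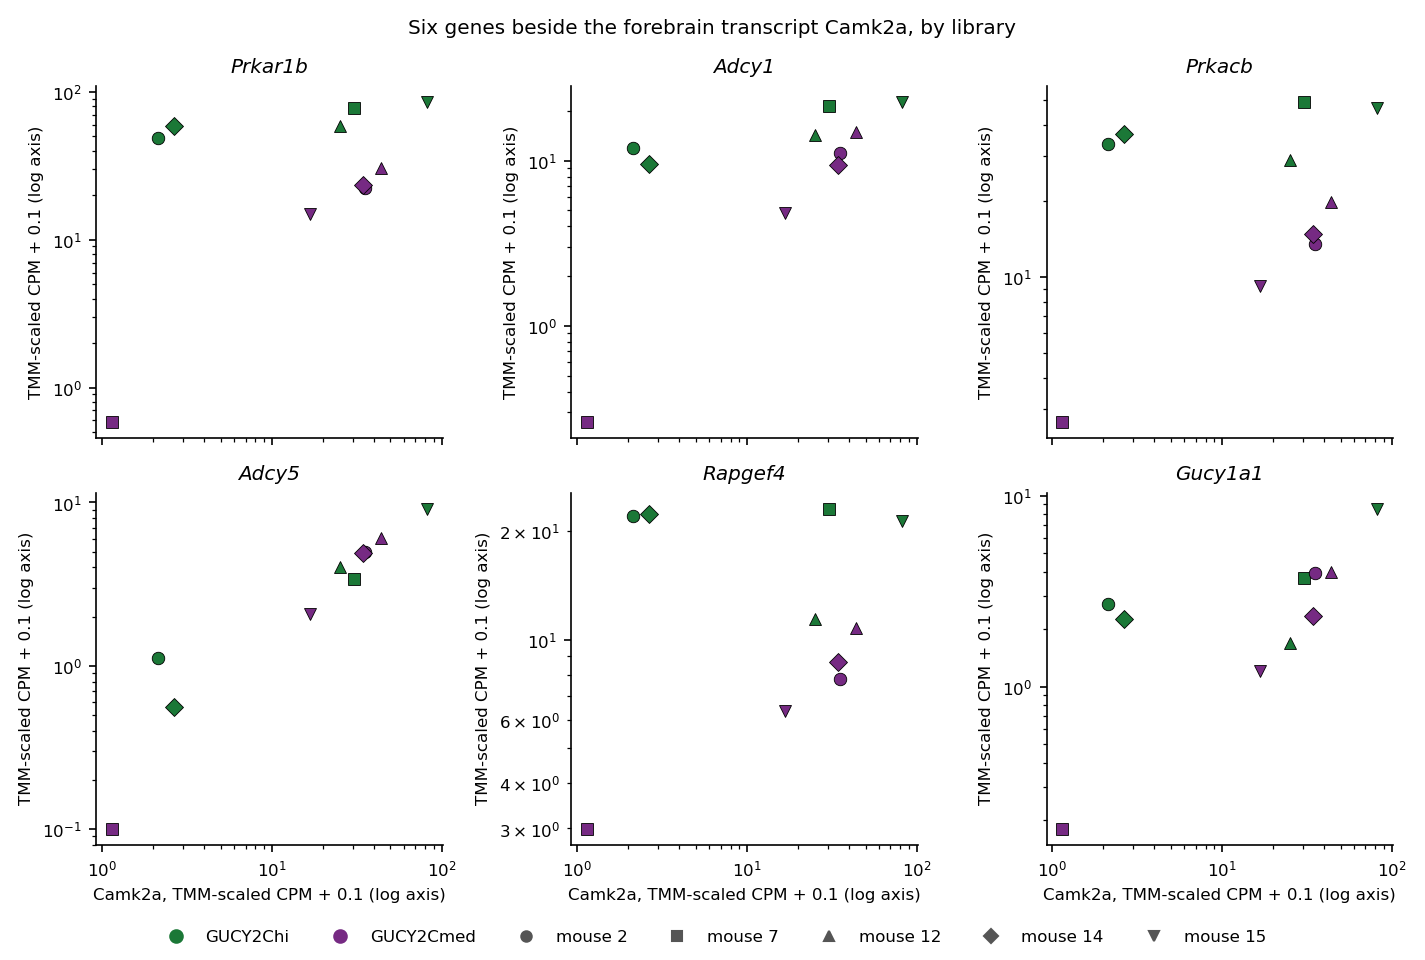
Level of 6 genes against that of Camk2a in each library, in TMM-scaled CPM plus 0.1 on log axes, with color giving the group and shape the mouse. The purple GUCY2Cmed point of mouse 7 lies at the lower left of each panel, and the green GUCY2Chi points of mice 2 and 14 combine little Camk2a with levels near those of the other GUCY2Chi libraries for Prkar1b, Prkacb and Rapgef4 and with the lowest GUCY2Chi levels for Adcy1.

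The other genes of cyclic nucleotide signalling were read from 7 lists, of 74 genes in all. Of these, 59 were tested, 13 were higher in GUCY2Chi cells, 7 were lower and 39 were not called. Of all genes tested, 13.9% were higher and 8.79% lower. The median log2 fold change was 0.28 over the 59 genes and 0.094 over all genes tested. With the replicate block, 8 of the 13 and 3 of the 7 were still called, where edgeR called 8.24% of all genes higher and 4.96% lower. Under the block 1 more, the Rap gene Rap2c, named after its values were seen, was lower (adjusted p = 0.00550 in edgeR). Among the 17 phosphodiesterases tested, 5 were higher and 3 lower. The dual cAMP and cGMP enzyme Pde11a (log2 fold change 6.62, adjusted p = 1.27e-05 in edgeR), the calmodulin-dependent Pde1c (4.27, adjusted p = 0.000136), the cGMP-inhibited Pde3b (2.71, adjusted p = 0.00111), the cAMP enzyme Pde8a (2.44, adjusted p = 0.00135) and the prenyl-binding protein gene Pde6d (0.75, adjusted p = 0.00116) were higher. The cGMP-specific enzymes Pde5a (-1.45, adjusted p = 0.00258) and Pde9a (-0.86, adjusted p = 0.00482) and the cGMP-inhibited enzyme Pde3a (-1.01, adjusted p = 0.00592) were lower. The call ended with the replicate block for Pde8a (0.0131), Pde9a (0.0122) and Pde3a (0.0244).

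Of the inhibitors and anchors of protein kinase A, 12 were tested. The inhibitor Pkib averaged 149 ± 83.1 CPM (SD, n = 5) in GUCY2Chi cells and 3.15 ± 2.12 CPM in GUCY2Cmed cells (log2 fold change 5.56, adjusted p = 0.000199 in edgeR), while the anchors Akap7 (-1.79, adjusted p = 0.00106) and Akap1 (-1.002, adjusted p = 0.00345; 0.0138 with the replicate block) were lower. Of the 6 G protein alpha subunits, the inhibitory Gnai1 (2.92, adjusted p = 0.00424 in edgeR) and Gnaz (2.50, adjusted p = 0.00931) were higher, and with the replicate block their adjusted p was 0.0169 and 0.0506. Among 6 genes of the transcriptional response to cAMP, the CREB coactivator Crtc1 was higher (1.29, adjusted p = 0.00683 in edgeR; 0.0350 with the replicate block). Among 6 Rap genes, Rap1b (2.10, adjusted p = 0.000177 in edgeR), a substrate of the Epac factors, and Rap1gap (1.69, adjusted p = 0.00171), which switches Rap1 off, were higher.

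The GUCY2C ligands, the transport genes Cftr and Slc9a3 and the scaffold gene Slc9a3r1 were lower in every GUCY2Chi library than in any GUCY2Cmed library. The same separation held for 13.2% of all genes tested. In edgeR without the block, Cftr and Slc9a3r1 of these genes passed the test. Of the list of ligands and nitric oxide synthases 5 genes were tested, with adjusted p of 0.0117 (Nos2) or more in edgeR, and of the 7 cGMP targets and exporters 2 were higher and 2 lower. Guanylin, Guca2a, averaged 165 ± 129 CPM (SD, n = 5) in GUCY2Chi cells and 693 ± 119 CPM in GUCY2Cmed cells (log2 fold change -2.07, adjusted p = 0.0148 in edgeR). Uroguanylin, Guca2b, averaged 346 ± 369 CPM and 1900 ± 144 CPM (log2 fold change -2.45, adjusted p = 0.0192). In GUCY2Chi cells Guca2b was at 785 and 715 CPM in mice 12 and 15 and at most 106 CPM in the others, and the 2 mice were also those with the most enterocyte marker RNA, whose part was not tested. In limma-voom with the replicate block Guca2a (adjusted p = 0.00983), Guca2b (0.00472), Slc9a3 (0.00667) and Nos2 (0.00407) were called, each lower in 5 of 5 mice, where edgeR with the block gave 0.0257, 0.0169, 0.0110 and 0.0107. Without mice 12 and 15 adjusted p was 9.72e-05 for Guca2b, 0.000353 for Slc9a3 and 0.0120 for Guca2a. The chloride channel gene Cftr was lower (-1.99, adjusted p = 0.00781 in edgeR; 0.0135 with the replicate block), as was the scaffold gene Slc9a3r1 (-1.99, adjusted p = 0.000567), and the sodium-proton exchanger gene Slc9a3 was not called (-2.52, adjusted p = 0.0120). The cyclic nucleotide exporters Abcc4 (3.11, adjusted p = 0.00123 in edgeR; 0.0117 with the replicate block) and Abcc5 (1.77, adjusted p = 0.000606) were higher. Leaving out 1 library ended the call of Cftr in 8 of 10 fits, and of Gnaz in 9, Crtc1 and Pde3a in 7 each, Gnai1 and Pde9a in 5 each, Akap1 in 4 and Pde5a in 2.

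**Figure D5:**
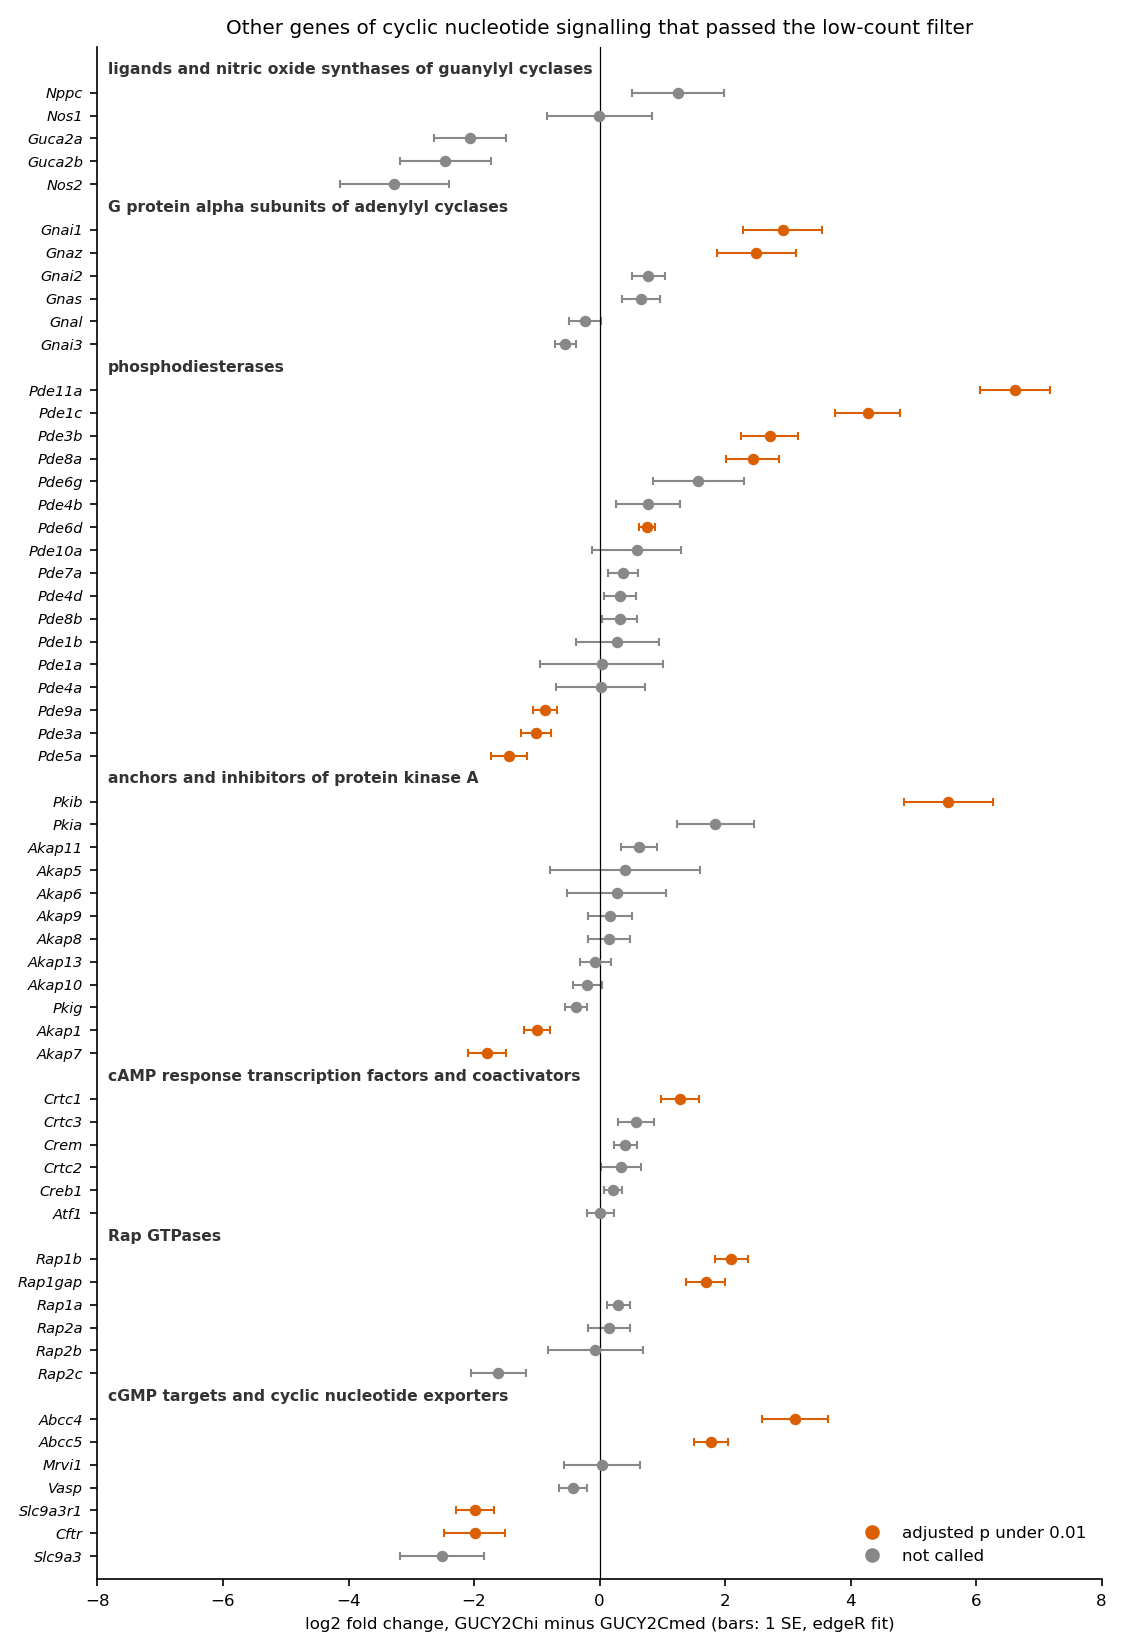
Log2 fold change of the 59 other genes of cyclic nucleotide signalling that were tested, GUCY2Chi minus GUCY2Cmed, with bars of 1 standard error and genes grouped by list (orange: adjusted p below 0.01; grey: not called). Pde11a and Pkib lie farthest to the right, and Nos2, which was not called, farthest to the left. The called genes left of 0 are Pde3a, Pde5a, Pde9a, Akap1, Akap7, Cftr and Slc9a3r1.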

How the data were processed

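RNA of GUCY2Chi and GUCY2Cmed cells was measured in 10 libraries, 5 per group. Per the labels and the study's methods, 20000 cells per library were sorted after gating out debris, doublets and dead cells, libraries were made with an NEBNext Ultra II kit and paired reads were aligned with STAR. For every gene the authors deposited a raw count of reads in each library. The deposited FPKM values scale these counts by gene length and library. They served only as an alternative for shares within families and for the order of Gucy2c and Prkar1a. Further files hold the authors' own comparison, as deposited: log2 fold changes, average log2 expression, p-values, adjusted p-values and test scores, none of which was used. A further 10 columns of normalized values per library were not used. The submitters' processing notes name limma 3.40.6 and edgeR 3.26.8.

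The tests were run with edgeR 4.0.16 in R 4.3.3, with DESeq2 1.42.0 and limma 3.58.1 as alternatives. Python 3.11.15 made the tables and figures (numpy 2.4.6, matplotlib 3.10.9, scipy 1.17.1, pandas 2.3.3). The 15703 genes that exceeded 0.5 CPM in 3 libraries or more entered a quasi-likelihood fit of edgeR, scaled by TMM, with the group as its only term, and were called at a Benjamini-Hochberg adjusted p below 0.01. The standard error is the fold change divided by the root of the F statistic. Scripts were tested on simulated data. GUCY2Cmed libraries carry the names Medium and Lo in the labels. Same-numbered libraries were taken as those of 1 mouse, as each mouse gave both groups; the correlation of their deviations from the group means was -0.110, -0.223, 0.272, -0.124 and 0.0607 for mice 2, 7, 12, 14 and 15. Positions are on GRCm38: 45 of 45 genes lie where GRCm38.p6 places them, and 12 of 43 where NCBIM37 (mm9, the build in the labels) does.

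The genes described and all lists were chosen with earlier results of these data known. Of the 46, 1 gene is not reported here. Every other gene that passed the filter is named, called genes are given by library, those that did not pass by their counts, and genes of the other lists where they were called, with Guca2a, Guca2b, Cftr, Slc9a3 and Pde5a in any case. Other fits used limma-voom or DESeq2, a block for the mouse, RLE factors or library size in place of TMM, other filters, libraries left out, and, all chosen after seeing the data, both libraries of mouse 7 left out and a covariate of 15 forebrain genes or of the 13 at or below 10 CPM in GUCY2Cmed of mouse 7. Outlying libraries were sought on log2 values of CPM plus 0.1.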

Additional observations from a re-analysis of the deposited data

Results flagged for a closer look

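Of 66 sets of 5 libraries, 1 per gene tested and group, 7 held a library that lay far outside the other 4 on the log2 scale by Dixon's criterion at its 95% critical value of 0.71. Chance alone marks about 1 set in 20.

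In the GUCY2Cmed library of mouse 7, Adcy1 was at 0.161 CPM, Adcy5 at 0 CPM, Prkar1b at 0.482 CPM and Hcn2 at 0.401 CPM, each far below the other 4 libraries of the group. The forebrain gene Camk2a, at 1.04 CPM there, was at 16.7 to 43.8 CPM in those 4.

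Cnga3 in the GUCY2Chi library of mouse 15 was at 0.0630 CPM, which is 1 count, against 8 to 11 counts in the other GUCY2Chi libraries. Rapgef4 in the GUCY2Chi library of mouse 12 was at 11.3 CPM, against 21.3 to 23.0 CPM in the others. Rapgef1 in the GUCY2Cmed library of mouse 14 was at 3.68 CPM, below a tight set of the other 4.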

How the results depend on the processing

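Of the 11 genes higher and 2 lower at an adjusted p below 0.01, 4 and 1 were called by edgeR with the replicate block, 9 and 1 by limma-voom with it, 11 and 1 with library size only, 11 and 1 without the filter (7.27% and 3.96% of all genes), 5 and 1 of 14 tested with at least 10 counts required in every library (14.2% and 9.05% of all genes), 7 and 3 without mice 12 and 15, and 7 and 1 without mouse 7. With 1 library left out the counts lay between 7 and 12 higher and between 1 and 2 lower, with 7 higher without GUCY2Cmed of mouse 14 or 15 and 12 without GUCY2Cmed of mouse 7, where 10.6% to 16.5% and 3.32% to 10.4% of all genes were. Limma-voom, DESeq2, RLE factors (14.1% and 8.06% of all genes) and the forebrain covariates of 13 and 15 genes (the latter 12.6% and 8.66%) gave 10 to 12 higher and 2 lower. Why the block took away calls was not tested, although it leaves fewer residual degrees of freedom.

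Over all genes, 2186 were higher and 1381 lower. With the replicate block 1294 and 779 were, and at an adjusted p below 0.05 there were 3367 and 2767. The count of lower genes was 2235 by DESeq2, 557 with library size only and 334 without mouse 7. With 1 library left out, 1636 to 2534 were higher and 512 to 1609 lower, with 512 to 965 lower without GUCY2Chi of mouse 2, 7 or 14 or any GUCY2Cmed library.

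The called genes of the families kept their direction throughout, and signs turned only among genes that were not called. Without mice 12 and 15, the log2 fold change was -0.36 for Gucy1b1, -0.99 for Adcy5, 0.15 for Adcy6, 0.081 for Prkaca, -0.071 for Rapgef1 and 0.037 for Rapgef6. Without mouse 7 it was -0.026 for Gucy1b1, -0.21 for Adcy5 and -0.077 for Rapgef1. Under the replicate block it was -0.079 for Adcy5, 0.015 for Prkaca and -0.055 for Rapgef1 in edgeR, and -0.024, 0.017 and -0.0084 in limma-voom. Library size only gave 0.20 for Adcy6, 0.28 for Prkaca and 0.22 for Rapgef6, and the filter at 10 counts gave 0.040, 0.11 and 0.055. Limma-voom gave 0.018 for Prkaca and -0.036 for Rapgef1, the covariate of 13 forebrain genes 0.025 and -0.018, and that of 15 genes 0.024 for Prkaca. With 1 library left out, Gucy1b1 ranged from -0.21 to 0.83, Adcy5 from -0.65 to 0.39, Adcy6 from -0.25 to 0.14, Prkaca from -0.14 to 0.14, Rapgef1 from -0.090 to 0.16, Rapgef2 from -0.17 to 0.36 and Rapgef6 from -0.15 to 0.081.

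Genes under about 1 CPM, such as Npr1, Cnga3 and Adcy4, rest on few counts. Intervals cover counting error only, as the sources name no molecular identifiers. The p-values measure the spread among libraries of 5 mice, and which libraries share a mouse was read from their numbers.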
